A study of Mus musculus with 6 samples.

Results

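Liver expression of 10 genes is described here, out of the 54115 genes to which the sequenced transcripts were summed. They are the collagen chains *Col1a1*, *Col1a2*, *Col3a1*, *Col4a1* and *Col6a1*, the matrix proteoglycan *Dcn*, the stellate cell and myofibroblast genes *Lrat* and *Acta2*, and the matrix remodeling genes *Timp1* and *Tgfb1*. They were given as a list of names, drawn up with earlier results of these mice known. Livers were taken after a fast of 16 h from male mice at 24 months of age, of which 3 were wild type (WT) and 3 lacked *Sirt7*, a nuclear deacylase of the sirtuin family (*Sirt7* KO). Both genotypes were littermates of heterozygous crosses on a C57BL/6J background. The deletion was inherited through the germline and not limited to a cell type, so these samples do not separate a role in stellate cells from one in hepatocytes. RNA of whole liver was amplified from a small input and sequenced, and the comparison asks how the aged, fasted liver differs between the genotypes.

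Fibrillar collagens are made as procollagen chains that are hydroxylated and folded as triple helices in the endoplasmic reticulum, then trimmed and crosslinked outside the cell. In liver the hepatic stellate cell, which stores retinyl esters in its quiescent state, is a main source of fibrillar collagen. On injury it can become a contractile, matrix-producing myofibroblast that expresses *Acta2*, and transforming growth factor beta, encoded by *Tgfb1*, is a known driver of that change. Type IV collagen is the network-forming collagen of basement membranes, and its alpha-1 and alpha-2 chains assemble together.

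Between 9994860 and 13424776 reads per mouse were assigned to transcripts. Reads of the targeted gene *Sirt7*, a check of the labels, were 55.2, 45.5 and 47.3 CPM (reads scaled to library size, here with edgeR's TMM factors) in WT mice and 28.6, 41.7 and 40.8 CPM in *Sirt7* KO mice. All 3 KO mice were lower, with a log2 fold change of −0.41 (SE 0.18, edgeR adjusted p = 0.423). The deleted part of the gene was not given in the sources used here. Reads from outside it could therefore not be set apart, and the gene's sum is a weak check of the labels. With transcript length offsets the *Sirt7* estimate was positive (0.80 on the log2 scale). By isoform the genotypes were well apart. One coding isoform (ENSMUST00000080202.11) had 429, 381 and 408 estimated reads in WT and 124, 135 and 77.5 in KO mice. A shorter coding isoform (ENSMUST00000106183.2) had 2.12, 5.12 and 0 in WT and 50.5, 54.1 and 93.3 in KO mice. Such a shift between long and short isoforms enters the length offsets. Across all genes, edgeR called 1 of 12524 tested genes, *Apol9b*, which is named here after its value was seen. A call needed a Benjamini-Hochberg adjusted p under 0.05 and a fold change over 1.5. Without *Sirt7* KO replicate 1, the same test called 252 genes.

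None of the 10 genes was called. Of the 8 that had enough reads to be tested, 0 passed in edgeR, where 0.00798% of all tested genes did, and 0 passed in DESeq2, where 1.78% did, or 1.93% with transcript length offsets. At an unadjusted p under 0.05, 1 of the 8 passed, *Col4a1*, against 11.3% of all tested genes. *Col4a1* was also the only tested member whose genotypes did not overlap in CPM, which held for 16.8% of all tested genes. The estimates of 6 of the 8 were above 0 and those of 2 below, with a median log2 fold change of 0.23 beside −0.01 over all tested genes. In RNA of whole liver, fewer cells of a type and less RNA per cell cannot be told apart.

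**Figure D1:**
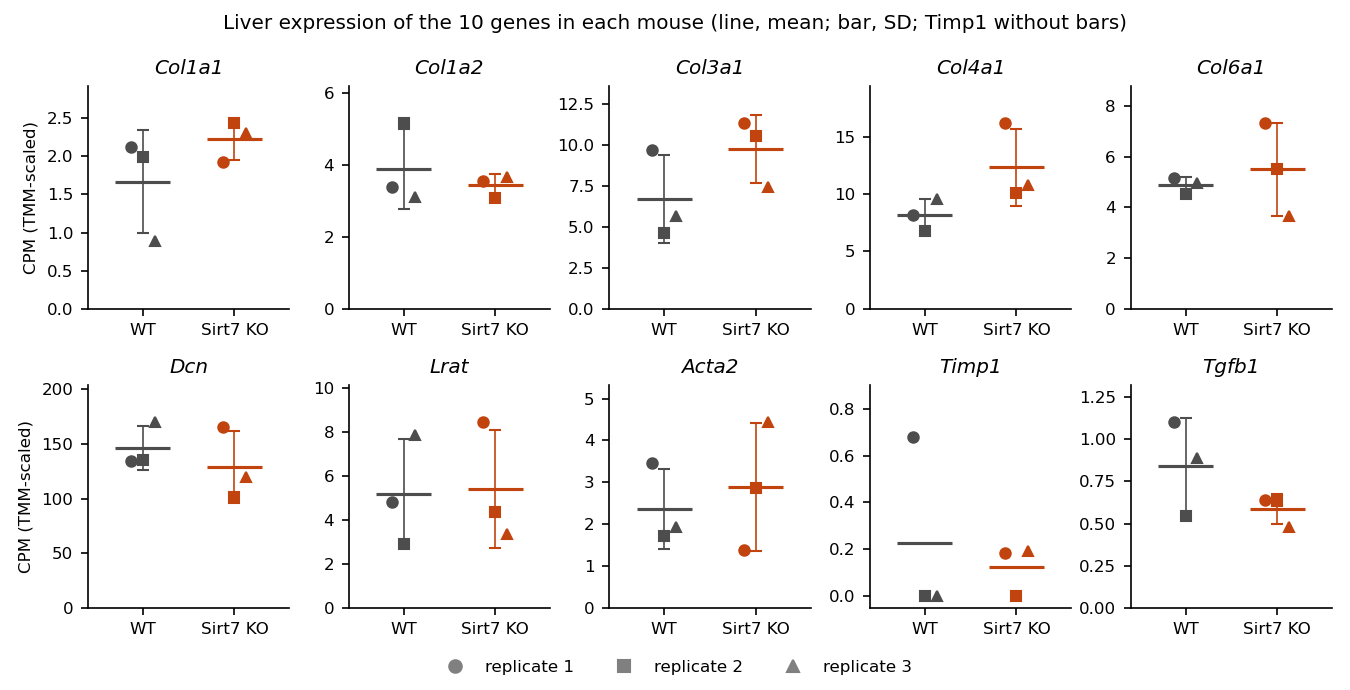
Each panel shows 1 gene, with TMM-scaled CPM on the vertical axis (each starting at or just below 0) and the 3 WT and 3 *Sirt7* KO mice side by side. Points are mice, horizontal lines are means and bars are SD, left out for *Timp1*. *Col4a1* is the one tested gene in which the 3 KO mice, from 10.1 to 16.2 CPM, all sit above the 3 WT mice.

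Whether the liver contained the cells these genes stand for was checked with marker lists. All 10 stellate cell markers listed, which include *Lrat* itself and beside it the reelin gene *Reln*, *Colec11*, *Ecm1* and *Hand2*, had reads in all 6 mice. Their summed level ran from 138 to 182 CPM in WT and from 105 to 175 CPM in KO mice, and most of it was *Ecm1*. Portal fibroblast markers, 7 of 9 with reads in every mouse and *Gli1* at 0 in all, summed to 38.8 to 52.9 CPM in WT and 37.4 to 43.5 CPM in KO mice. Most of that sum was *Gas1*. Smooth muscle markers were sparse, with 3 of 7 above 0 in every mouse and sums of 5.67 to 9.99 CPM in WT and 7.42 to 10.9 CPM in KO mice. Mesothelial markers were as sparse, with 3 of 6 above 0 in every mouse and sums of 4.99 to 8.55 CPM in WT and 3.66 to 6.89 CPM in KO mice. The genes described here are expressed by several of these cells, and which cells gave the reads was not measured.

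Summed markers of other resident cells overlapped between the genotypes. The 8 Kupffer cell markers summed to 51.4 to 151 CPM in WT and 49.8 to 138 CPM in KO mice, with WT replicate 3 and KO replicate 1 at the upper ends. These were also the mice with the highest *Lrat* and the highest *Dcn* of their genotypes. Of the Kupffer cell markers, *Marco* was at 42.8 CPM in WT replicate 3 and at 1.16 to 4.34 CPM in the other mice. The 8 sinusoidal endothelial markers summed to 87.6 to 114 CPM in WT and 92.4 to 130 CPM in KO mice. The 9 hepatocyte markers summed to 57824 to 63814 CPM in WT and 57873 to 72634 CPM in KO mice. For lymphocytes the 8 markers gave 8.98 to 11.9 and 5.30 to 13.1 CPM, and for bile duct cells the 7 markers gave 47.9 to 73.7 and 54.0 to 71.8 CPM, in WT and KO mice respectively. Most of the bile duct sum was *Spp1*, which is also in the list of contractile and activated stellate cell genes below. No marker sum separated the genotypes. Of the tested single markers, *Apoa1* and *Krt19* were higher in every KO mouse than in every WT mouse. Genotypes did not overlap in 16.8% of all tested genes. The part of cell composition in the values below was not tested.

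Levels of different genes were compared in TPM, which the authors' quantification scales to transcript length. *Dcn*, the gene of the small leucine-rich proteoglycan decorin that binds collagen fibrils, stood far above the others at 76.4 TPM ± 14.4 (SD over the 6 mice, from 56.0 to 94.7). *Col3a1* followed at 2.78 TPM ± 1.40 and *Col4a1* at 2.33 TPM ± 0.46. Then came *Acta2* at 1.23 TPM ± 0.59, *Col6a1* at 1.11 TPM ± 0.24, *Lrat* at 0.851 TPM ± 0.355 and *Col1a2* at 0.618 TPM ± 0.105. The lowest were *Tgfb1* at 0.418 TPM ± 0.281, *Col1a1* at 0.283 TPM ± 0.0839 and *Timp1*, with 0 to 1.04 TPM. *Dcn* was above *Col3a1* in 6 of 6 mice with separate ranges, whereas from *Col3a1* down each gene overlapped the next in the order. No neighbouring pair below *Dcn* was in the same order in all 6 mice. A few reads assigned to a short isoform can raise TPM strongly. In KO replicate 1, *Col3a1* had 9.17 and 11.2 estimated reads on isoforms with effective lengths of 333 and 487 bases, and 4.97 TPM. KO replicate 2 had 100 reads, all on the isoform of 5314 bases, and 1.65 TPM. The order of genes below *Dcn* thus depends on how reads were split between isoforms.

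**Figure D2:**
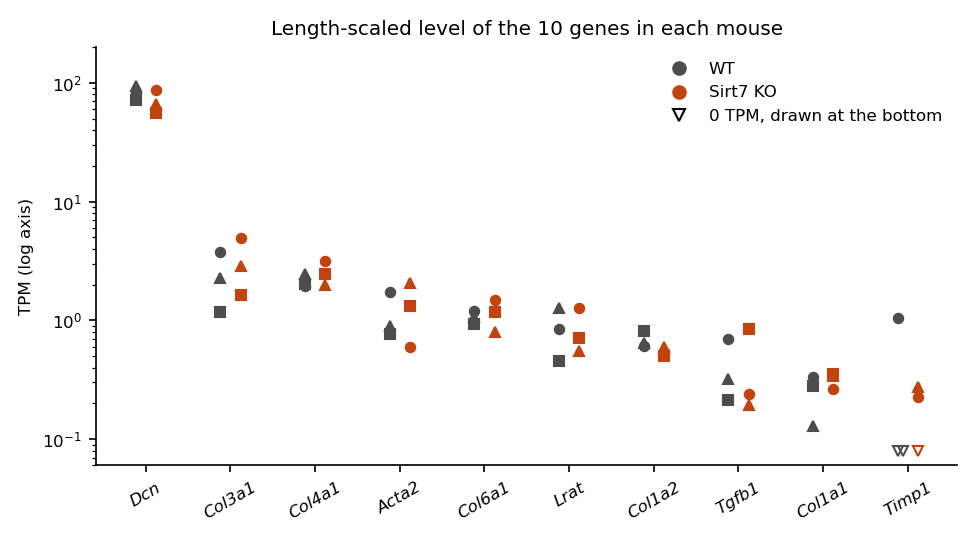
The 10 genes are ordered by mean TPM, with TPM on a log axis and 1 point per mouse (grey, WT; orange, *Sirt7* KO; circle, square and triangle, replicates 1, 2 and 3). Open triangles at the bottom mark *Timp1* at 0 TPM in 3 mice. *Dcn*, from 56.0 to 94.7 TPM, lies apart from the other 9 genes, whose neighbours overlap.

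*Col1a1* (ENSMUSG00000001506.10, GRCm38 chr11:94936224-94953042, plus strand) encodes the alpha-1 chain of type I collagen, the main fibril of scar tissue. Its level was 2.12, 1.996 and 0.888 CPM in WT mice and 1.92, 2.44 and 2.31 CPM in KO mice, from only 12 to 25 reads per mouse. WT replicate 3 was low and the other 5 mice lay close together, so the genotypes overlapped. The means were 1.67 ± 0.68 CPM in WT and 2.22 ± 0.27 CPM in KO (SD, n = 3 each), a log2 fold change of 0.42 (SE 0.45, 95% confidence interval −0.60 to 1.44, edgeR adjusted p = 0.780). With so few reads, counting alone gives a coefficient of variation of 21.7%, against 26.5% measured within genotypes.

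*Col1a2* (ENSMUSG00000029661.16, chr6:4504814-4541544, plus strand) encodes the alpha-2 chain, 1 of which joins a pair of alpha-1 chains in each type I collagen molecule. It was at 3.39, 5.17 and 3.11 CPM in WT mice and 3.57, 3.07 and 3.66 CPM in KO mice. WT replicate 2 was the highest of the 6, and the KO mice lay close to the other WT mice. The means were 3.89 ± 1.12 and 3.44 ± 0.32 CPM, with a log2 fold change of −0.17 (SE 0.33, interval −0.92 to 0.57, edgeR adjusted p = 0.889). Per length, *Col1a1* was at 0.475 ± 0.178 of the *Col1a2* level (TPM ratio, SD over the 6 mice). The ratio was 0.366 ± 0.176 in WT and 0.585 ± 0.111 in KO mice, and it was below 1 in every mouse, the reverse of the chain proportion in the protein.

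*Col3a1* (ENSMUSG00000026043.18, chr1:45311538-45349706, plus strand) encodes type III collagen, which forms thin fibrils beside type I. Its level was 9.74, 4.63 and 5.70 CPM in WT mice and 11.4, 10.6 and 7.42 CPM in KO mice. KO replicates 1 and 2 were above every WT mouse, whereas KO replicate 3 was below WT replicate 1. The means were 6.69 ± 2.70 and 9.79 ± 2.09 CPM and the log2 fold change was 0.55 (SE 0.32, interval −0.17 to 1.26, edgeR adjusted p = 0.566). Leaving out each mouse in turn gave log2 fold changes from 0.35 to 0.91, the highest without WT replicate 1. Among 31-base words of its transcripts, 1.12% also occur in *Gm47302*, which overlaps it on the same strand.

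*Col6a1* (ENSMUSG00000001119.7, chr10:76708792-76726168, minus strand) encodes a chain of type VI collagen, which forms beaded filaments around cells. Its level was 5.17, 4.54 and 4.96 CPM in WT mice and 7.33, 5.51 and 3.66 CPM in KO mice. The WT mice lay close together and the KO mice spread to both sides of them. The means were 4.89 ± 0.32 and 5.499 ± 1.83 CPM, with a log2 fold change of 0.17 (SE 0.31, interval −0.53 to 0.87, edgeR adjusted p = 0.883). Its partner chain gene *Col6a2* was lower per length in all 6 mice. The *Col6a1* to *Col6a2* TPM ratio was 15.4 in KO replicate 1 and 1.62 to 3.66 in the other mice.

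*Col4a1* (ENSMUSG00000031502.11, chr8:11198423-11312826, minus strand) encodes the alpha-1 chain of basement membrane collagen. It was at 8.21, 6.80 and 9.54 CPM in WT mice and 16.2, 10.1 and 10.8 CPM in KO mice, from 75 to 177 reads per mouse. All 3 KO mice were above all 3 WT mice, KO replicate 1 by the most and KO replicate 2 by the least. The means were 8.19 ± 1.37 and 12.4 ± 3.36 CPM, 1.51-fold higher in KO (interval 1.02 to 2.23), or 0.59 on the log2 scale (SE 0.25, unadjusted p = 0.0421, adjusted p = 0.412 in edgeR). The two-sided exact permutation test gave p = 0.1, which is the smallest that 3 mice against 3 allow. The log2 fold change was 0.35 without KO replicate 1 and 0.30 with transcript length offsets in edgeR. In TPM the genotypes overlapped, at 1.95, 2.03 and 2.44 in WT and 3.14, 2.44 and 1.97 in KO mice.

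The *Col4a1* isoform that received the reads differed between mice. Reads of all WT mice and of KO replicate 1 were assigned to the full-length coding isoform (ENSMUST00000033898.9, 87.7, 57.4, 107.9 and 159.3 estimated reads), with 0 on a second long isoform (ENSMUST00000209735.1). KO replicates 2 and 3 had 81.4 and 105 reads on the second isoform and 0 on the full-length coding one. A short coding isoform (ENSMUST00000209598.1) had 7 to 21.1 reads in every mouse. The second isoform, annotated as a target of nonsense-mediated decay, shares 50 exons with the 52 exons of the full-length coding one. It carries an extra exon of 17 bases (exon 50 of 53, GRCm38 chr8:11204536-11204552, minus strand) and a shorter first exon, of 174 instead of 311 bases, and the last exons end a few bases apart. The extra exon is shown in capitals between 30 bases of each neighbouring exon, beside the same junction of the full-length coding isoform without it.
Second isoform: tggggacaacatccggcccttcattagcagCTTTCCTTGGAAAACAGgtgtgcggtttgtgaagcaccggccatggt
Full-length coding isoform: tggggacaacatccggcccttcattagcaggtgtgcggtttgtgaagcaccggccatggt
Only reads that cross this exon or reach the differing ends can tell the isoforms apart, and the deposited values do not hold single reads. The sum over isoforms, used for the CPM above, does not depend on that split. The length offsets depend on it little, as the long isoforms have effective lengths of 6365 and 6237 bases. They depend more on the share of the short coding isoform, with 920 bases and 6.25% to 23.4% of the reads.

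**Figure D3:**
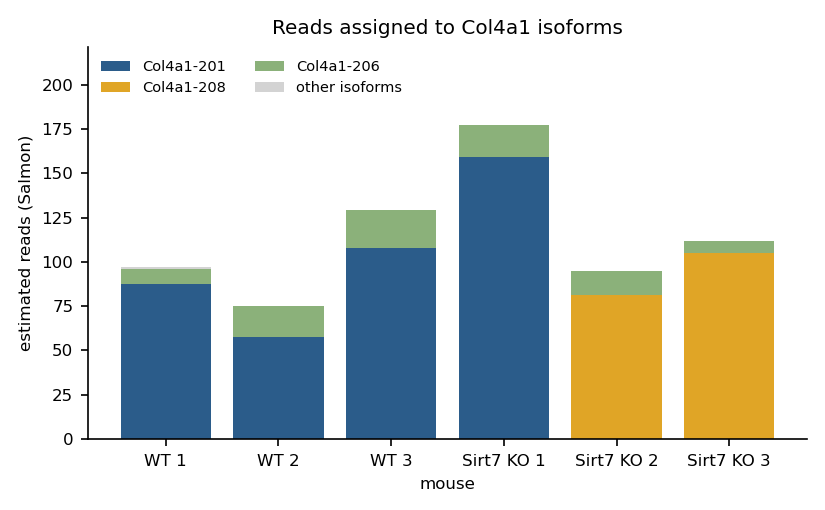
Bars show the estimated reads assigned to each *Col4a1* isoform in each of the 6 mice (vertical axis, reads, from 0). Bar colours carry the annotation's isoform names. The full-length coding isoform (blue) dominates in the 3 WT mice and KO replicate 1, and the second isoform (yellow) in KO replicates 2 and 3 with 81.4 and 105 reads.

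*Col4a1* and *Col4a2*, the gene of the partner alpha-2 chain, lie head to head. Their start sites are at 11312826 on the minus strand and 11312805 on the plus strand of chromosome 8, so that the first exons overlap by 22 bases on opposite strands. The libraries did not mark strand, so reads inside that overlap cannot be given to either gene. *Col4a2* was at 4.74, 6.08 and 3.18 CPM in WT mice and 8.61, 9.01 and 9.92 CPM in KO mice. Again all 3 KO mice were higher. The gap between the genotypes was wider than the spread among KO mice but narrower than that among WT mice. The means were 4.67 ± 1.45 and 9.18 ± 0.67 CPM, with a log2 fold change of 0.98 (SE 0.28, unadjusted p = 0.00632, adjusted p = 0.229 in edgeR). Per length, *Col4a1* was above *Col4a2* in 6 of 6 mice, with TPM ratios from 1.47 to 5.75. The region around both starts is shown as the RefSeq windows from 250 bases before to 50 bases after each start (GRCm38.p6), since both genes start in it. Capitals mark CCAAT and GGGCGG on either strand, and no TATAA was found in either window.
Col4a1 window at chr8:11312777-11313076 on the minus strand: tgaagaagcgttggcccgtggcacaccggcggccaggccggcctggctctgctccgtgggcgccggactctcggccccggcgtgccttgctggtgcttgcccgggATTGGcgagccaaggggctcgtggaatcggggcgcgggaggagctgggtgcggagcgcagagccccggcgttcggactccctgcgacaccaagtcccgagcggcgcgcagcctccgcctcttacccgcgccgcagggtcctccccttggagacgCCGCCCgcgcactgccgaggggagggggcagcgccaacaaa
Col4a2 window at chr8:11312555-11312854 on the plus strand: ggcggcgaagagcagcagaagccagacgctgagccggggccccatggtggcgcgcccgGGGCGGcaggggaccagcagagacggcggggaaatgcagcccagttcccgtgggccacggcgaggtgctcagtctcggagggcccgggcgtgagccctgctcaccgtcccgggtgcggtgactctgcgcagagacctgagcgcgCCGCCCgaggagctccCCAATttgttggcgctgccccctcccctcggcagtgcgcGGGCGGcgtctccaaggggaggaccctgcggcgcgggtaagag
CCAAT occurs once in each window, at −145 (as its reverse complement) from the *Col4a1* start and at −32 from the *Col4a2* start. GGGCGG occurs at +10 of *Col4a1* (as its reverse complement), where it is the same stretch of DNA as 1 of the 3 matches of *Col4a2*. A match is a description of letters and not of a bound factor.

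RefSeq windows of that kind were matched for 8 of the 10 genes. All were searched for the same motifs on both strands. TATAA was found in 3 of the 8, *Col3a1*, *Lrat* and *Acta2*, against 24.9% of all 32851 windows. CCAAT was found in 4 of the 8 (37.4% of all windows) and GGGCGG in 5 of the 8 (35.7%), with 6 matches in *Tgfb1*. *Lrat* was the only 1 of the 8 to hold all 3 motifs, with TATAA 29 bases and CCAAT 81 bases before its start.

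*Dcn* (ENSMUSG00000019929.16, chr10:97479609-97518143, plus strand) was the best measured of the 10, with 956 to 2296 reads per mouse. Its level was 134.5, 135.7 and 169.8 CPM in WT mice and 165.5, 101.3 and 119.6 CPM in KO mice. KO replicate 1 lay with the highest WT mouse, and KO replicates 2 and 3 were below all WT mice. The means were 146.7 ± 20.04 and 128.8 ± 33.1 CPM, with a fold change of 0.878 (interval 0.640 to 1.204) and a log2 fold change of −0.19 (SE 0.20, edgeR adjusted p = 0.780). That interval leaves out a halving and a doubling. Counting error was 2.53%, while the variation within genotypes was 19.8%. Without KO replicate 1 the log2 fold change was −0.41 (SE 0.17, edgeR adjusted p = 0.264). In every mouse 85.0% to 91.3% of *Dcn* reads were assigned to 1 isoform and 8.44% to 14.3% to another, which starts from another first exon.

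*Lrat* (ENSMUSG00000028003.6, chr3:82892579-82903973, minus strand) encodes lecithin retinol acyltransferase, which makes the retinyl esters stored in quiescent stellate cells. It was at 4.83, 2.90 and 7.84 CPM in WT mice and 8.42, 4.35 and 3.37 CPM in KO mice. Both genotypes covered almost the same range, with WT replicate 3 and KO replicate 1 the high mice. The means were 5.19 ± 2.49 and 5.38 ± 2.68 CPM and the log2 fold change was 0.05 (SE 0.45, interval −0.97 to 1.06, edgeR adjusted p = 0.982). Leaving out single mice moved it from −0.43, without KO replicate 1, to 0.48, without WT replicate 3. *Lrat* overlaps *Rbm46os* on the opposite strand, and reads of these genes cannot be told apart there.

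*Acta2* (ENSMUSG00000035783.9, chr19:34241090-34255590, minus strand) encodes smooth muscle actin, which marks myofibroblasts and also vessel walls. Its level was 3.47, 1.72 and 1.92 CPM in WT mice and 1.37, 2.86 and 4.43 CPM in KO mice, from 15 to 46 reads per mouse. KO mice included both the lowest and the highest of the 6. The means were 2.37 ± 0.96 and 2.89 ± 1.53 CPM, with a log2 fold change of 0.28 (SE 0.50, interval −0.85 to 1.41, edgeR adjusted p = 0.882). The estimate was −0.17 without KO replicate 3. The order of the mice was not that of *Lrat*, since KO replicate 1 was highest for *Lrat* and lowest for *Acta2*. Of its 31-base words 1.39% are shared with *Actg1*, *Actg-ps1* or *Gm6375*, so its count could hold some of their reads.

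*Timp1* (ENSMUSG00000001131.11, chrX:20870166-20874735, plus strand), the gene of a secreted inhibitor of matrix metalloproteinases that is induced in injured liver, was close to the limit of detection. It had 8, 0 and 0 reads in WT mice and 2, 0 and 2 in KO mice. A single WT mouse held all WT reads. The sums were 8 reads in WT (exact Poisson 95% interval 3.45 to 15.8, for counting error only) and 4 reads in KO (1.09 to 10.2), and the gene was not tested. *Timp1* overlaps *Syn1*, a gene of the opposite strand. The level that a count of 0 allows, 3 reads, is 0.222 to 0.318 CPM in these libraries.

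*Tgfb1* (ENSMUSG00000002603.15, chr7:25687002-25705077, plus strand) had 13, 6 and 12 reads in WT mice and 7, 6 and 5 in KO mice, and did not pass the filter either. This was 1.10, 0.544 and 0.888 CPM in WT and 0.641, 0.636 and 0.482 CPM in KO mice. WT replicate 2 lay among the KO mice. The sums were 31 reads in WT (exact Poisson 95% interval 21.1 to 44.0) and 18 in KO (10.7 to 28.4). Fitted without a filter, *Tgfb1* had a log2 fold change of −0.51 (SE 0.86, edgeR adjusted p = 0.852), and with length offsets in DESeq2 it was −0.03 (SE 0.98). The mean TPM was 0.411 ± 0.258 in WT and 0.426 ± 0.361 in KO mice. By mouse it was 0.702, 0.212 and 0.318 in WT and 0.242, 0.842 and 0.194 in KO mice. KO replicate 2 had 1.89 estimated reads on an isoform with an effective length of only 245 bases, which raises its TPM. From 33.3% to 92.3% of its reads were assigned to a single-exon transcript (ENSMUST00000206348.1) at chr7:25688890-25691462 that lies within the first intron. The spliced coding isoform had 0, 4 and 1 estimated reads in WT and 3, 1.11 and 3 in KO mice. The intronic transcript also holds all 118 of the 31-base words that *Tgfb1* shares with other genes, and the coding isoform rested on at most 4 reads in any mouse.

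**Figure D4:**
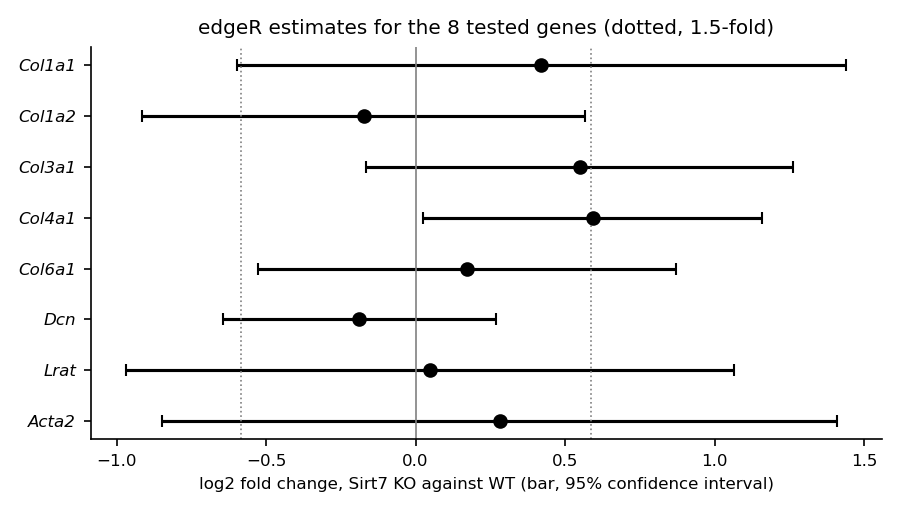
Points are edgeR log2 fold changes of *Sirt7* KO against WT for the 8 tested genes and bars are 95% confidence intervals (horizontal axis, log2 scale, dotted lines at 1.5-fold). The interval of *Col4a1*, 0.03 to 1.16, leaves out 0 before adjustment and the other 7 include it.

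The mice did not line up as generally high or low in these genes. KO replicate 1 was the highest of the 6 in 4 of the 8 tested genes (*Col3a1*, *Col4a1*, *Col6a1* and *Lrat*) and the lowest in *Acta2*. WT replicate 2 was the lowest in *Col3a1*, *Col4a1* and *Lrat* and the highest in *Col1a2*. The variation within genotypes was widest in *Lrat* (48.9%) and *Acta2* (48.5%) and lay between 19.8% and 29.3% in the other 6. Counting alone would give 12.9% in *Lrat* and 18.6% in *Acta2*.

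The surrounding pathways were read from 12 lists of matrix and stellate cell genes. As reported here they hold 218 genes, of which 153 were tested and 0 were called by edgeR. At an unadjusted p under 0.05, 11 were higher and 5 lower in KO mice, beside 819 higher and 599 lower of all 12524 tested genes. DESeq2 called 3 of them, *Col5a2*, *Stra6l* and *Steap4*, all higher in KO mice, both with and without length offsets. This was 1.7% of the 176 listed genes it tested, or 1.92% of 156 with length offsets, close to its 1.78% and 1.93% over all genes.

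Among fibrillar collagens 7 of 11 were tested, 3 had an unadjusted p under 0.05 with higher KO values, and the median log2 fold change was 0.44. *Col5a2*, a chain of the type V collagen that nucleates fibrils, was at 0.847, 3.36 and 1.48 CPM in WT and 6.23, 6.04 and 21.6 CPM in KO mice. All KO mice were higher, KO replicate 3 by far, with a log2 fold change of 2.58 (SE 0.63, adjusted p = 0.187 in edgeR and 0.000618 in DESeq2). The *Col5a2* estimate was 1.70 without KO replicate 3 and 3.26 without WT replicate 2, and with length offsets in DESeq2 it was 2.04 (adjusted p = 0.0339). *Col27a1*, a fibrillar collagen chain, followed at 0.78 (SE 0.24, edgeR adjusted p = 0.266) and *Col5a3* at 0.44 (SE 0.19, edgeR adjusted p = 0.433). Of basement membrane collagens and laminins 17 of 23 were tested. The 2 with an unadjusted p under 0.05 were *Col4a1* and *Col4a2*, while the list's median was −0.24, with 10 of its estimates below 0. In other collagens, with 7 tested, none had such a p, and *Col14a1*, a collagen found on fibril surfaces, had a log2 fold change of −0.31 (SE 0.32), which was −0.77 without KO replicate 1, −0.05 without KO replicate 2 and −0.14 with length offsets in edgeR.

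Of 18 tested genes for collagen folding, crosslinking and trimming, 9 estimates were above 0 and 9 below. *P4hb*, a subunit of prolyl 4-hydroxylase that is also a general disulfide isomerase, was at 1040 ± 137 CPM in WT and 1427 ± 180 CPM in KO mice (0.46 on the log2 scale, SE 0.17, edgeR adjusted p = 0.364). *Pcolce*, which enhances procollagen trimming, was at 3.48 ± 0.15 and 5.57 ± 0.85 CPM (0.68, SE 0.27, edgeR adjusted p = 0.389). The proteoglycan and glycoprotein list, with 15 tested, had no gene at an unadjusted p under 0.05. Its most abundant members were vitronectin (*Vtn*) at 0.12 (SE 0.17) and fibronectin (*Fn1*) at 0.27 (SE 0.15) on the log2 scale, both made largely by hepatocytes. Of 11 proteases and inhibitors, only *Mmp19*, a matrix metalloproteinase, had such a p, at 0.46 (SE 0.19, edgeR adjusted p = 0.406).

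Quiescent stellate cell genes gave 19 tested genes with a median of −0.11, 1 higher and 1 lower at an unadjusted p under 0.05. *Steap4*, a metalloreductase, was at 49.6 ± 15.0 and 91.6 ± 10.8 CPM (0.88 on the log2 scale, SE 0.23, adjusted p = 0.202 in edgeR and 0.0118 in DESeq2). *Bambi*, a decoy receptor that dampens transforming growth factor beta signals, was at 9.74, 6.62 and 8.36 CPM in WT and 3.75, 4.03 and 3.28 CPM in KO mice (−1.16, SE 0.26, edgeR adjusted p = 0.166). Neither of these genes overlapped between genotypes. The contractile and activated list had 12 tested genes, 4 above and 8 below 0, and none at an unadjusted p under 0.05. In it *Spp1* was at −0.04 (SE 0.20) and the tropomyosin gene *Tpm1* at −0.06 (SE 0.18).

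In the list of transforming growth factor beta ligands, activators, receptors and SMADs, 22 genes were tested with a median of −0.06, and the inhibitory *Smad7* was the one at an unadjusted p under 0.05. The response genes, 13 tested, had a median of −0.45 with 9 estimates below 0, and *Id1*, *Id3* and *Smad7* had such a p. *Id3*, an inhibitor of basic helix-loop-helix factors, was at 253, 70.5 and 59.8 CPM in WT and 46.6, 29.7 and 41.3 CPM in KO mice. WT replicate 1 was far above the other WT mice, and the same held for *Id1* (57.2 CPM) and *Smad7* (12.3 CPM). The log2 fold changes were −1.70 for *Id3* (SE 0.51, edgeR adjusted p = 0.251), −2.12 for *Id1* (SE 0.77, edgeR adjusted p = 0.346) and −1.71 for *Smad7* (SE 0.74, edgeR adjusted p = 0.422). Without WT replicate 1 they were −0.74 for *Id3*, −0.79 for *Id1* and −0.57 for *Smad7*. Which signal set the levels of the listed response genes was not tested.

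Retinoid handling, which quiescent stellate cells share with hepatocytes, had 16 tested genes with a median of −0.06, and 2 were higher and 1 lower at an unadjusted p under 0.05. *Stra6l*, a membrane receptor for retinol uptake, was at 53.9, 59.1 and 57.3 CPM in WT and 82.8, 124 and 117 CPM in KO mice (0.92 on the log2 scale, SE 0.17, adjusted p = 0.124 in edgeR and 0.000844 in DESeq2). The WT mice were nearly equal and all KO mice were higher. *Dhrs3*, which reduces retinaldehyde to retinol, was at 102 ± 14.4 and 146 ± 16.5 CPM (0.52, SE 0.16, edgeR adjusted p = 0.270). *Rxra*, the gene of a retinoid receptor that pairs with other nuclear receptors, was at 128 ± 1.03 and 97.7 ± 3.66 CPM (−0.40, SE 0.13, edgeR adjusted p = 0.282). Of 4 tested ligands and receptors of platelet-derived growth factor, none had an unadjusted p under 0.05. *Pdgfa* was at 0.02 (SE 0.37) and *Pdgfrb*, a receptor of stellate cells, at 0.14 (SE 0.46) on the log2 scale.

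**Figure D5:**
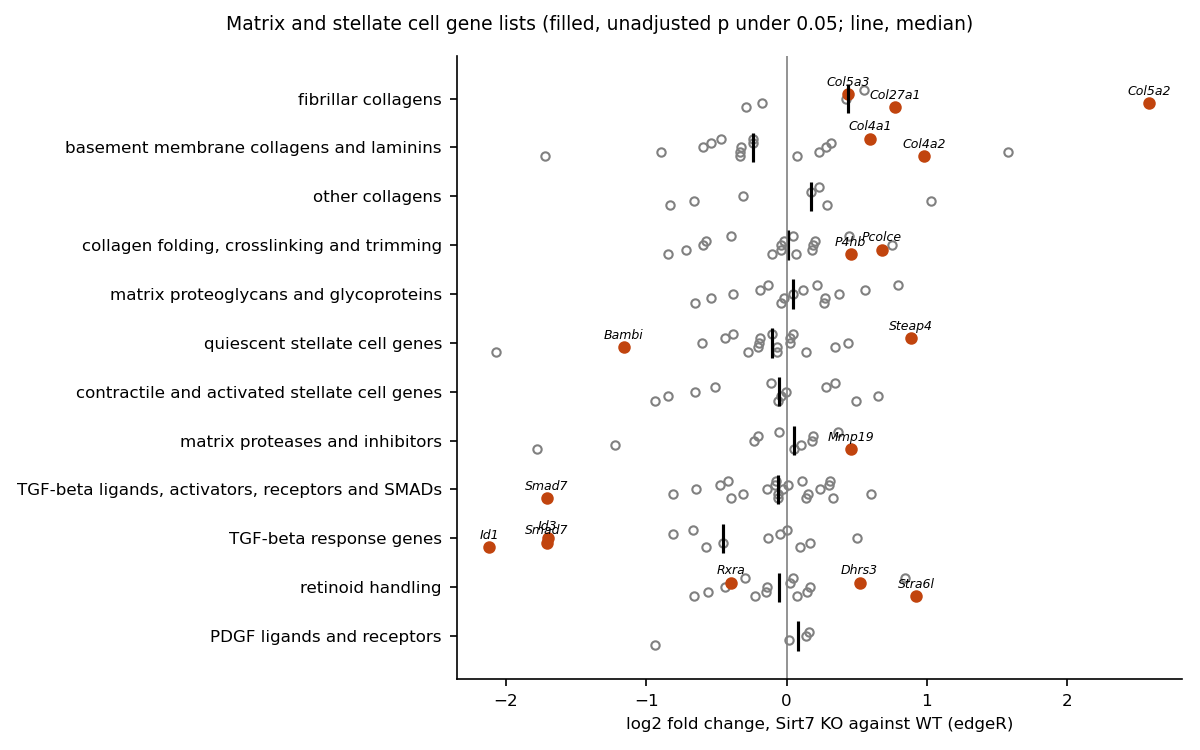
Each circle is 1 tested gene of the 12 lists, placed by its edgeR log2 fold change of *Sirt7* KO against WT (horizontal axis). Filled circles have an unadjusted p under 0.05 and black lines are list medians. The medians lie between −0.45 for transforming growth factor beta response genes and 0.44 for fibrillar collagens.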

How the data were processed

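Sequencing libraries of whole-liver RNA from 3 WT and 3 *Sirt7* KO mice, each its own sample, were grouped by the genotype in their labels. Per the labels, the authors trimmed single-end reads with Trim Galore 0.6.5 and quantified them against GRCm38 transcripts with Salmon 1.2.1, and the annotation release was not given in the sources used here. The deposited values for every transcript were an unnormalized estimated count, fractional where reads were split, and TPM, in which the authors' quantification accounts for transcript length and library total.

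Estimated counts were summed per gene of GENCODE M21 and rounded. Of 140992 transcripts, 139172 matched with the same version and 619 with another, and 1201 without a gene (0.303% to 0.492% of reads) were left out. The quasi-likelihood test of edgeR 4.0.16 (R 4.3.3, limma 3.58.1) used TMM scaling and a minimum count of 10, with Benjamini-Hochberg adjustment over all 12524 tested genes. Intervals are 95% intervals of that fit. The exact permutation test was two-sided on log2(CPM + 0.5). Depth of 9994860 to 13424776 reads covers counting error only, since no molecular identifiers are named. Mice of a genotype differed by more than sampling noise (chi-square of at least 17.5 per gene). Words of 31 bases and motifs were searched with Python 3.11.15.

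Counts were simulated once for the 12524 genes of this comparison, from edgeR's own dispersions and with 200 genes changed. On these counts, edgeR recovered 75.8% of 4-fold and 20.2% of 2-fold changes, with 9.9% of calls false. DESeq2 1.42.0 called 90.1% and 37.6%, with 20.6% false. The shares are over all genes. Genes with few reads were not scored apart, and no outlying mouse was simulated.

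The genes, the lists and the rule for named genes were chosen with earlier results of these data known, and 1 listed gene is not reported here. The rule names *Sirt7*, the 10 genes and, per list, up to 4 genes at an unadjusted p under 0.05, smallest first, or else the 2 with the highest CPM. Alternatives tried were RLE, upper-quartile and total-count scaling, no low-count filter or a mean of 50 counts, offsets for transcript length, DESeq2, a block for replicate number, an unadjusted p, and omission of single mice.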

Additional observations from a re-analysis of the deposited data

How the results depend on the processing

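None of the 8 tested genes of the list was called under any of the normalizations, filters, length offsets, DESeq2 fits, the block or the fits without 1 mouse (lowest adjusted p 0.264, 0 called in each), and 1 passed at an unadjusted p. Of 117 alternative estimates for them, 110 kept their direction. With total counts, which moved the median of all genes to −0.11, *Lrat* turned to −0.052, *Vtn* to −0.00034 and *Pdgfa* to −0.088 on the log2 scale. Length offsets turned *Sirt7* to 0.80 in edgeR and 0.81 in DESeq2. Leaving out 1 mouse gave −0.17 to 0.65 for *Acta2*, −0.31 to 0.084 for *Col1a2*, −0.093 to 0.39 for *Col6a1*, −0.43 to 0.48 for *Lrat*, −0.23 to 0.35 for *Pdgfa*, −0.27 to 0.68 for *Pdgfrb*, −0.22 to 0.075 for *Spp1* and −0.19 to 0.066 for *Tpm1*. It gave 0.12 to 0.63 for *Col1a1*, 0.35 to 0.91 for *Col3a1*, 0.35 to 0.72 for *Col4a1* and −0.41 to −0.04 for *Dcn*.

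Calls over all genes were 1 with edgeR as described, 2 with total counts and 633 of 27881 tested genes without a filter. They were 2 with length offsets, 256 with DESeq2, 245 with DESeq2 and length offsets, and 1418 at an unadjusted p. Without 1 mouse they were 0 to 252, the most without *Sirt7* KO replicate 1, where 12921 genes were tested. The cause was not tested. In the lists, fibrillar collagens had 1 call without a filter and in both DESeq2 fits. Quiescent stellate cell genes had 3 without a filter and 1 in both DESeq2 fits. Retinoid handling had 2 without a filter, 1 in both DESeq2 fits and 0 to 2 without 1 mouse, the 2 without KO replicate 1 being *Stra6l* and *Cyp26a1*. Without a filter, the list of transforming growth factor beta ligands, activators, receptors and SMADs had 1, and that of response genes 3. *Smad7* is in both of these lists.

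With the replicate number as a block, 41 genes were called, 31 higher and 10 lower, with 1 response gene, *Id1* (log2 fold change −1.97, adjusted p = 0.0295), and none of the 10 genes. Deviations of mice with the same number correlated at 0.07, 0.08 and −0.04 over genes, and those of mice with different numbers at −0.10 to 0.05. Whether mice of the same number shared a litter or a batch was not tested. The block called no other listed gene. *Col1a1*, *Timp1* and *Tgfb1* had at most 25 reads per mouse, where counting alone gives 21.7%, 70.7% and 35.0% variation.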
